A study of Homo sapiens with 12 samples.

Results

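The genes of the tryptophan-using enzymes IDO1 and WARS, and of AFMID, KMO and KYNU, which act on products of tryptophan, were followed. The cells were 2 established head and neck squamous cell carcinoma (HNSCC) lines, Cal27 and HN30, left untreated or given 20 or 200 ng/ml IFNα for 24 h. The members were taken by gene symbol, and the 5 symbols gave 5 of the 60099 genes in the deposited gene table. The group was chosen by the measured response of IDO1 to IFNα, which differed strongly between the 2 lines, so the values of IDO1 are a description and were not tested, whereas WARS, KYNU, KMO and AFMID were. All 5 members were chosen with earlier results of these data known, so the tested genes were not picked blind to them. The 12 samples of total RNA depleted of rRNA bear the letters A to F, with 2 replicates each: A and D were untreated, B and E received 20 ng/ml, and C and F received 200 ng/ml. A to C and D to F each hold every dose once and were taken as the 2 lines, a reading of the letters, since the labels do not name the line of a sample. They are called set A-C and set D-F here, and which set is which line is not given. The labels name no genetic change in any group, and each set is 1 line grown alone, without the immune cells of a tumour. Nothing in the labels tells whether replicates were separate cultures, so p-values measure the spread between these samples only.

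IFNα is a type I interferon, and it acts on the promoters of many antiviral and immune genes. Tryptophan in a cell has a few main fates. IDO1 opens the ring of tryptophan, AFMID turns the product into kynurenine, and KMO adds a hydroxyl group to kynurenine. KYNU cleaves kynurenine and its hydroxylated form, and the cleavage of the hydroxylated form leads towards NAD. WARS, by contrast, is the cytosolic enzyme that loads tryptophan onto its tRNA for protein synthesis. IDO1 and WARS are textbook targets of interferons, most of all of IFNγ, and IDO1 in tumours is known for starving T cells of tryptophan and exposing them to kynurenines.

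Total counts were between 10517448 and 16056734 per sample, and values are given as deposited estimated counts, as CPM, counts relative to library size scaled with edgeR's TMM factors, or as TPM, which is also scaled for transcript length. The dose labels were checked on 12 interferon-stimulated genes, and 12 of 12 were called higher at both doses in both sets. Epithelial markers were present, with a summed TPM of 1583 to 1906 in set A-C and 669 to 836 in set D-F, but KRT14 had 494 to 730 counts in set A-C and 0 to 3 in set D-F. The 5 leukocyte markers had a summed TPM of 9.27 to 13.7 in A, 19.5 to 19.9 in C, 5.34 to 7.63 in D and 37.1 to 40.6 in F. Within that list PTPRC and LYZ had at most 2 counts in any sample, ITGAX had 6 to 27 in set A-C and 0 in set D-F, CD14 had 8 to 44 and 0 to 20, and CD68, a lysosomal protein, moved with the dose. Fibroblast markers summed to 5.50 to 15.4. A gene was called when its fold change was 2 or more and its p-value, from edgeR's quasi-likelihood test with Benjamini-Hochberg adjustment over 19944 genes, was at most 0.05. Shares of all genes or transcripts given below refer to such edgeR calls. No share was taken for unadjusted p-values or for DESeq2, so counts by those measures have none beside them.

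The promoter of WARS is shown because WARS was the member called after IFNα. RefSeq lists a pair of WARS starts on the minus strand of chromosome 14, in windows of 250 bases before to 50 bases after each start. The window of the downstream start (chr14:100375298-100375597, GRCh38.p14) holds a match to the core of the interferon-stimulated response element (ISRE), a motif of many genes induced by type I interferon, read here as GAAA, any 2 bases and GAAA again. The match begins 55 bases before the start and is given in capitals, with 10 bases on either side.

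WARS, chr14:100375383-100375412, minus strand: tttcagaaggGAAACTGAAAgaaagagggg

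Read on both strands, this ISRE-type motif occurred in 3.57% of 35116 RefSeq promoter windows of that length. The same WARS window held a match to TTCNNNGAA, the core of the interferon-gamma activated site (GAS), beginning 142 bases before the start, and 7.66% of all windows held that motif. The window of the upstream start (chr14:100376278-100376577) held neither motif. The KYNU window held 2 matches to TTCNNNGAA and no ISRE-type match, and the windows of KMO and AFMID held neither. IDO1 had no entry among the windows used here, so its promoter was not read. The printed stretch lies within exon 1 of the transcript WARS-201 in GENCODE release 29, which starts further upstream at base 100375608. A match is a run of letters and not a measured binding site.

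IDO1 (ENSG00000131203, chr8:39902275-39928444, plus strand), the first enzyme of the kynurenine route, had low counts in every sample. In set A-C its counts were 18 and 20 in the controls A1 and A2, 47 and 28 at 20 ng/ml in B1 and B2, and 52 and 43 at 200 ng/ml in C1 and C2. In set D-F they were 0 and 0 in D1 and D2, 20 and 15 in E1 and E2, and 45 and 49 in F1 and F2. IDO1 was thus read in untreated A and not in untreated D, and both samples at either dose lay above both controls of their own set.

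On the CPM scale the mean of IDO1 was 1.37 ± 0.11 (SD, n = 2) in A, 2.92 ± 1.38 in B and 4.54 ± 0.20 in C. In the other set it was 0 in D, 1.44 ± 0.35 in E and 3.85 ± 0.15 in F. In order of level, C stood above F, F above B, B above E and A, and D came last. The range of B, 1.94 to 3.90 CPM, overlapped that of F, 3.75 to 3.96 CPM, and the range of E, 1.19 to 1.69 CPM, held that of A, 1.29 to 1.45 CPM. A level of 3 counts was taken as readable at the least, and it stood for 0.194 and 0.199 CPM in D2 and D1, a floor that covers counting error only.

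The fold change of IDO1 in set A-C was 2.13 at 20 ng/ml and 3.31 at 200 ng/ml. In set D-F group means were set against the floor of 3 counts per library in D. By that measure IDO1 was at least 7.34-fold higher at 20 ng/ml and at least 19.6-fold higher at 200 ng/ml. These bounds leave out the spread between the replicates of E and of F. The contrast between the sets stood in the untreated cells rather than in the cells at the high dose. By the mean of A against the same floor, untreated A was at least 6.98-fold higher than untreated D. By group means, F was 0.848 times C at 200 ng/ml and E was 0.494 times B at 20 ng/ml. From 20 to 200 ng/ml IDO1 went up 1.55-fold in set A-C and 2.67-fold in set D-F. Per length, the TPM of IDO1 was 4.77 to 4.94 in C and 4.02 to 5.14 in F, so the ranges at 200 ng/ml overlapped on that scale. A low untreated D was not particular to IDO1. Of the 12 interferon-stimulated genes checked above, 7 were called lower in untreated D than in untreated A, beside 11.0% of all genes. The median log2 difference of the 12 was -1.29.

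**Figure D1:**
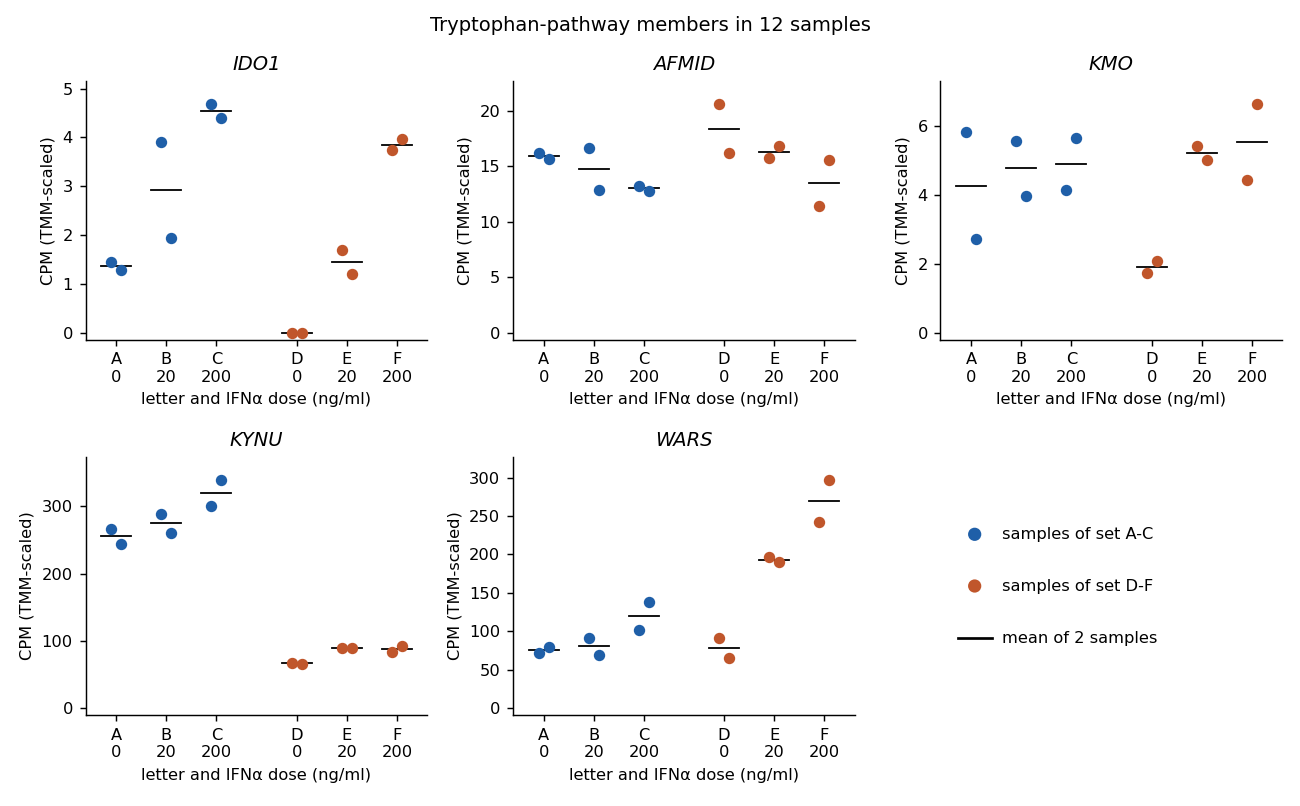
CPM of the 5 members in each sample (points, 2 per letter) with the group mean (line), against letter and IFNα dose in ng/ml, on linear axes that differ between genes. IDO1 is at 0 in D and reaches 3.75 to 3.96 CPM in F, close to the 4.40 to 4.68 CPM of C, whereas WARS stands at 242 to 297 CPM in F and 102 to 138 CPM in C.

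WARS (ENSG00000140105, chr14:100333788-100376805, minus strand) was called higher in set D-F at both doses and at neither dose in set A-C. In set D-F its counts were 1387 and 1020 in D1 and D2, 2320 and 2398 in E1 and E2, and 2909 and 3678 in F1 and F2. In set A-C they were 899 and 1240 in A1 and A2, 1107 and 1004 in B1 and B2, and 1133 and 1352 in C1 and C2. In CPM the 3 dose groups of set D-F did not overlap, while in set A-C the range of A lay within that of B and below that of C.

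At 200 ng/ml WARS rose by 1.77 on the log2 scale in set D-F (SE 0.21, adjusted p = 8.2e-04), a 3.42-fold change with a 95% interval of 2.48 to 4.70. It was the 1 called among the 4 tested members, beside 2.09% of all genes tested. At 20 ng/ml WARS rose by 1.29 in the same set (SE 0.20, adjusted p = 0.0073), again as 1 of 4 and beside 1.41% of all genes. The call at 20 ng/ml was lost without D2 (log2 fold change 1.07, adjusted p = 0.064).

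In set A-C the log2 fold change of WARS was 0.66 at 200 ng/ml (SE 0.20, adjusted p = 0.087), a 1.58-fold difference with a 95% interval of 1.15 to 2.16. At 20 ng/ml it was 0.08 (SE 0.20, adjusted p = 0.95). None of the 4 tested members was called in set A-C, where 2.18% of all genes were called at 200 ng/ml and 0.712% at 20 ng/ml. At an unadjusted p under 0.05, WARS and KYNU differed at 200 ng/ml and none of the 4 at 20 ng/ml, and DESeq2 also called 0 of the 4 at either dose.

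The difference of the WARS response between the sets was 1.12 on the log2 scale at 200 ng/ml (SE 0.28, 95% interval 0.48 to 1.76), with an unadjusted p of 0.0031 and an adjusted p of 0.086 in edgeR. It was therefore not called, as was the difference of 1.21 at 20 ng/ml (SE 0.29, adjusted p = 0.14), and 0 of the 4 tested members were called beside 0.998% and 0.231% of all genes. At an unadjusted p under 0.05, 2 of the 4 differed at 200 ng/ml (WARS and KMO) and 3 at 20 ng/ml (WARS, KMO and KYNU). With DESeq2 in place of edgeR both WARS differences were called, at adjusted p-values of 0.0095 and 0.0071. Of the 12 interferon-stimulated genes checked above, edgeR called 6 as responding more in set D-F at 200 ng/ml and 8 at 20 ng/ml. The median differences of the 12 were 1.06 and 1.22 on the log2 scale, near the values of WARS.

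Untreated cells of the 2 sets had like levels of WARS, with a difference of D from A of 0.05 (SE 0.20, 95% interval -0.40 to 0.50, adjusted p = 0.86). At 200 ng/ml F exceeded C by 1.17 (SE 0.20, adjusted p = 0.0011), a comparison added after the values were seen, in which 28.4% of all genes were called. The call was lost without C1 (0.97, adjusted p = 0.010) or F2 (0.99, adjusted p = 0.011). Between 20 and 200 ng/ml WARS was not called in either set, with 0.57 in set A-C (adjusted p = 0.28) and 0.48 in set D-F (adjusted p = 1.0), and 0.0702% and 0.0150% of all genes were called there.

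**Figure D2:**
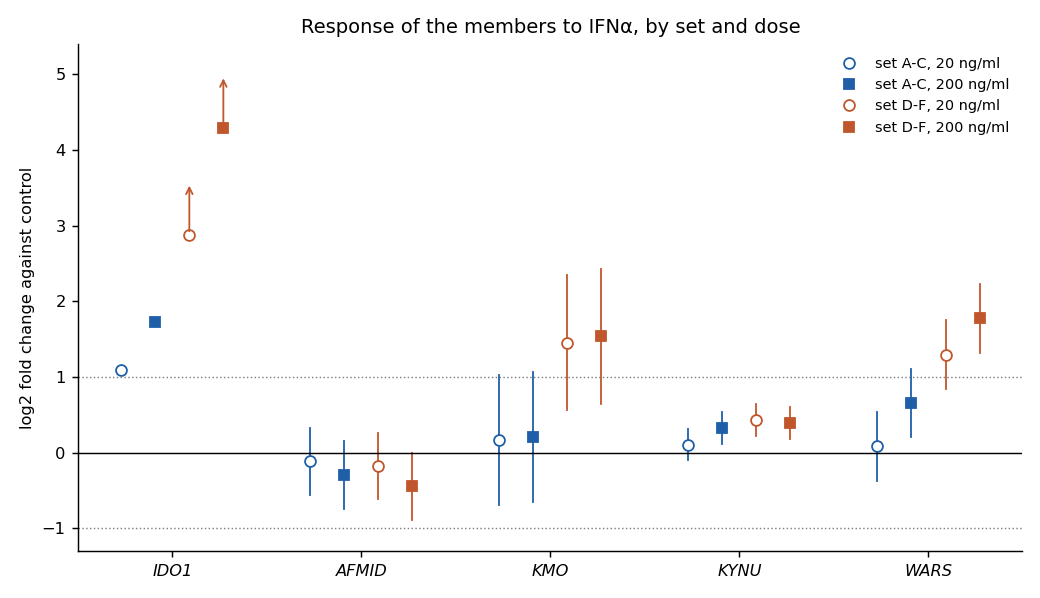
Log2 fold change of each member against the untreated cells of its set at 20 ng/ml (open circles) and 200 ng/ml (squares), with 95% intervals from edgeR for the 4 tested genes. Points of IDO1 carry no interval, arrows mark lower bounds (2.88 and 4.29) and dotted lines mark 2-fold. WARS in set D-F lies at 1.29 and 1.77, and the intervals of AFMID lie below 1.

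WARS transcripts were then divided by their start, a grouping made after the values were seen. Of the 44 annotated WARS transcripts, 18 began between bases 100376805 and 100376251, called the upstream group here. Another 21 began between 100375744 and 100374942, the downstream group, and 5 began further inside the gene. The downstream group reaches beyond both ends of the promoter window given above, so its sums do not belong to that RefSeq start alone. The summed CPM of the downstream group was 33.2 and 28.7 in A, 56.6 and 36.4 in B, and 82.5 and 60.8 in C. In set D-F it was 27.6 and 34.9 in D, 65.6 and 99.9 in E, and 129.5 and 115.8 in F. In either set the samples at each dose lay above the controls, and those at 200 ng/ml lay above those at 20 ng/ml.

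The mean of the downstream group was 2.31 times the control in C and 3.92 times in F. For the upstream group it was 0.986 times in C, where the 2 samples were at 12.4 and 71.6 CPM. In F it was 3.44 times, at 80.1 and 161 CPM. The share of the downstream group among both was 45.9% and 86.9% in C2 and C1 and 33.7% and 69.0% in D1 and D2. Replicates thus differed by as much as doses. The division of reads between transcripts that share exons is an estimate, and no test was made on these sums.

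**Figure D3:**
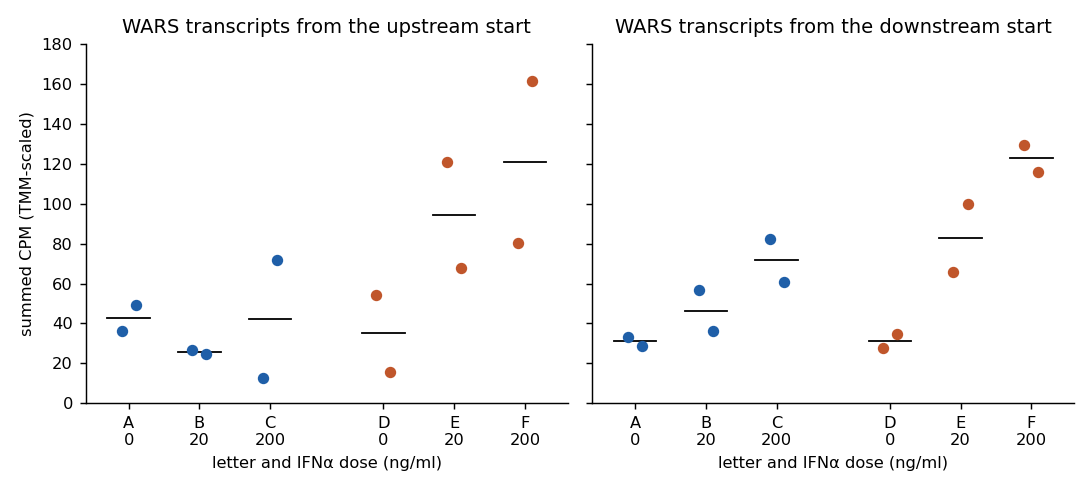
Summed CPM of the 18 WARS transcripts of the upstream group (left) and the 21 of the downstream group (right) in each sample (points), with means of the 2 samples (lines), against letter and IFNα dose in ng/ml. Panel titles name the groups by their start. Points of the downstream group run from 27.6 CPM in D1 to 129.5 CPM in F1 without overlap between doses of a set. The upstream group gives 12.4 and 71.6 CPM in the 2 samples of C.

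Of the single transcripts, WARS-201, a coding transcript of the downstream group, had 323 and 91 counts in D and 761 and 1060 in F. WARS-201 starts at base 100375608, upstream of the window that holds the printed match. WARS-232, another coding transcript, had 571 and 1 counts in D and 181 and 1771 in F, so that replicates of 1 group differed by far more than the gene did. At 200 ng/ml 0 of 28 tested WARS transcripts were called with edgeR in either set, with the lowest adjusted p at 0.45 in set A-C and 0.46 in set D-F. Over the 50 tested transcripts of the 4 genes 0 were called in sets A-C and D-F, beside 0.269% and 0.227% of all transcripts. In the same order 4 and 9 had an unadjusted p under 0.05 and DESeq2 called 1 and 5. The shares of all transcripts by these looser measures were not taken. Replicates varied more for transcripts than for genes (common biological coefficient of variation 0.837 against 0.196).

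KYNU (ENSG00000115919, chr2:142877498-143055832, plus strand), the enzyme that cleaves kynurenine, was the member whose level set the lines apart most clearly among those tested. Its counts were 3303 and 3786 in A1 and A2, and 1017 and 1022 in D1 and D2. Across doses they stayed between 3303 and 3786 in set A-C and between 999 and 1139 in set D-F, with no overlap. KYNU was lower in untreated D than in untreated A (log2 fold change -1.93, SE 0.10, adjusted p = 5.2e-07). In that comparison 2 of the 4 tested members, KYNU and KMO, were called lower, beside 11.0% of all genes called lower.

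With IFNα the log2 fold change of KYNU was 0.33 at 200 ng/ml in set A-C (SE 0.09, adjusted p = 0.067). In set D-F it was 0.39 at 200 ng/ml (SE 0.09, adjusted p = 0.040) and 0.43 at 20 ng/ml (SE 0.09, adjusted p = 0.038). Both passed the adjusted p but not the 2-fold threshold, and so were not called. The response differed between the sets by 0.07 at 200 ng/ml, with a 95% interval of -0.23 to 0.36. In TPM the direction in set D-F was the opposite (log2 fold change of log2(TPM + 0.1) -0.19 at 200 ng/ml, adjusted p = 0.88 with limma). D1 was listed at 103 TPM and D2 at 41.0 TPM, although their counts were nearly equal. In D1 KYNU-201 had 201 counts and KYNU-209 had 373, and in D2 they had 697 and 83, so the reads were divided differently between these coding transcripts.

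KMO (ENSG00000117009, chr1:241532134-241595642, plus strand), the kynurenine hydroxylase, had few counts throughout. They were 26 and 32 in D1 and D2, 64 and 63 in E1 and E2, and 53 and 82 in F1 and F2. In set A-C they were 72 and 42 in A, 67 and 57 in B, and 46 and 55 in C. In CPM the samples of untreated D, at 1.72 and 2.07, lay below every other sample. In TPM they did not, with 1.50 in D1 and 3.67 in D2 beside 2.33 and 2.05 in A1 and A2.

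In set D-F the log2 fold change of KMO was 1.54 at 200 ng/ml (SE 0.40, 95% interval 0.64 to 2.43, adjusted p = 0.056) and 1.45 at 20 ng/ml (SE 0.40, adjusted p = 0.096), so that neither was called. With DESeq2 both were called, at adjusted p-values of 0.022 and 0.047, whereas on log2(TPM + 0.1) with limma they were at 0.59 and 0.22 (adjusted p = 0.61 and 0.93). In set A-C the log2 fold change was 0.21 at 200 ng/ml (SE 0.38, adjusted p = 0.82), and the difference between the sets was 1.33 (SE 0.55, adjusted p = 0.25). KMO was called lower in untreated D than in untreated A (log2 fold change -1.15, SE 0.40, adjusted p = 0.039), a call lost without A1 (-0.52, adjusted p = 0.34), D1 (adjusted p = 0.16), D2 (0.092), E1 (0.058) or E2 (0.053). On log2(TPM + 0.1) the direction of KMO in D against A was the opposite (0.11, adjusted p = 0.88 with limma).

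The end of KMO overlaps OPN3 on the opposite strand by 5541 bases, and whether counting used the strand is not given in the sources used here. OPN3 itself was higher in D than in A by 2.69 on the log2 scale and differed by 0.04 between F and D. Its part in the values of KMO was not tested. Of the 10 annotated KMO transcripts 1 passed the filter, the coding transcript KMO-204, with 3 and 14 counts in D and 37 and 75 in F.

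AFMID (ENSG00000183077, chr17:78187317-78207701, plus strand), the formamidase between IDO1 and KMO, was not called in any comparison. Its counts were 201 and 243 in A, 147 and 125 in C, 311 and 250 in D, and 137 and 193 in F. At 200 ng/ml the log2 fold change was -0.29 in set A-C (SE 0.20, adjusted p = 0.43) and -0.45 in set D-F (SE 0.20, adjusted p = 0.26), and the 95% interval in set D-F was -0.89 to -0.0028. AFMID in CPM was lower in both samples at 200 ng/ml than in both controls of each set. In TPM the 2 samples of F lay on either side of those of D, at 34.4 and 35.6, and the log2 fold change on log2(TPM + 0.1) was -0.05 (adjusted p = 0.97 with limma). Untreated D and A differed by 0.21 (SE 0.20, adjusted p = 0.42).

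Set side by side per length, the lowest and highest TPM over the 12 samples were 41.0 and 403 for KYNU, 57.1 and 292 for WARS, 23.7 and 40.4 for AFMID, 1.50 and 4.78 for KMO, and 0 and 5.14 for IDO1. Among the 5 members IDO1 and KMO were thus the scarce ones, and their ranges overlapped.

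The remaining routes of tryptophan were read in 73 genes listed by function, of which 59 passed the filter on low counts. In set A-C 0 of the 59 were called at either dose with edgeR or DESeq2, beside 2.18% of all genes at 200 ng/ml and 0.712% at 20 ng/ml, while 23 at 200 ng/ml and 11 at 20 ng/ml had an unadjusted p under 0.05. In set D-F 1 was called at 200 ng/ml and 1 at 20 ng/ml, beside 2.09% and 1.41% of all genes, counts near those shares. The median log2 fold change of the 59 genes at 200 ng/ml in set D-F was -0.03, beside 0 over all genes tested, and that of the 57 genes above 3 counts in set A-C was -0.09, beside -0.0027 over all genes. Besides genes named below, some passed the adjusted p at 200 ng/ml short of 2-fold. NAMPT rose in set A-C (0.49, adjusted p = 0.0060) and set D-F (0.31, adjusted p = 0.042). NADSYN1 (-0.50, adjusted p = 0.024) and SLC1A5 (-0.60, adjusted p = 0.030) fell in set A-C, and SLC36A4 fell in set D-F (-0.71, adjusted p = 0.038).

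The gene called at 200 ng/ml was IL4I1, a secreted oxidase of aromatic amino acids that also consumes tryptophan. It had 14 and 10 counts in A, 17 and 24 in C, 9 and 11 in D, 21 and 37 in E, and 51 and 58 in F. IL4I1 rose by 2.75 on the log2 scale in set D-F (SE 0.42, adjusted p = 0.0044), a call lost without D1 (2.62, adjusted p = 0.056). In set A-C it was at 1.17 (SE 0.43, adjusted p = 0.14), and the difference between the sets was 1.58 (SE 0.60, adjusted p = 0.21). IL4I1 overlaps NUP62 on the same strand by 22715 bases, and NUP62, with 748 to 2017 counts, was at 0.36 (adjusted p = 0.41) in set D-F. An unannotated locus assembled from the reads also overlaps IL4I1 on the same strand, by 19934 bases. This locus had 0 to 36 counts and was at 2.82 in set D-F (adjusted p = 0.24). The part of either in the values of IL4I1 was not tested.

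The other enzymes that open the tryptophan ring, TDO2 and IDO2, had 0 to 5 and 0 to 2 counts and were not tested. TPH1, the first enzyme towards serotonin, had 11 to 34 counts in set A-C and 2 to 10 in set D-F and was not called at either dose (log2 fold change at 200 ng/ml 0.14 and -0.65). Downstream of kynurenine, HAAO had 0 counts in every sample. QPRT, which makes the NAD precursor nicotinic acid mononucleotide, had 0 to 2 counts in set A-C and 53 to 119 in set D-F. AADAT, an aminotransferase that converts kynurenine to kynurenic acid, was at 0 to 2 against 144 to 204 counts. Over the 59 genes, 5 were called higher and 10 lower in untreated D than in untreated A, beside 15.7% and 11.0% of all genes.

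Tryptophan enters cells through the large neutral amino acid exchanger made of SLC7A5 and SLC3A2. SLC7A5 was at -0.51 on the log2 scale at 200 ng/ml in set A-C (SE 0.12, adjusted p = 0.039), short of 2-fold, and at -0.06 in set D-F (SE 0.12, adjusted p = 0.89). SLC3A2 was at -0.29 (adjusted p = 0.16) and 0.10 (adjusted p = 0.72). The transport gene that was called was SLC43A2, a facilitated carrier of large neutral amino acids, which rose by 1.14 at 20 ng/ml in set D-F (SE 0.21, adjusted p = 0.019) and was at 0.85 at 200 ng/ml (SE 0.21, adjusted p = 0.049). The call at 20 ng/ml was lost without D1 (0.91, adjusted p = 0.14), E1 (adjusted p = 0.079) or E2 (adjusted p = 0.11), and also in a fit of the compared groups alone (adjusted p = 0.075) and on log2(TPM + 0.1) with limma (0.78, adjusted p = 0.28).

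**Figure D4:**
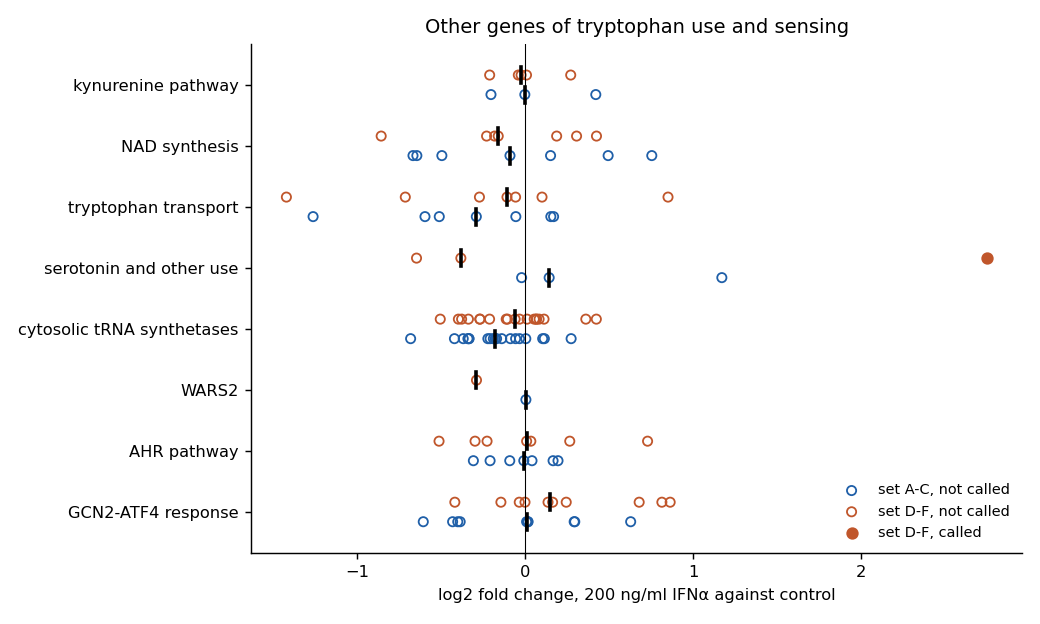
Log2 fold change at 200 ng/ml IFNα against control for the listed genes of tryptophan use and sensing, 1 row per list, with set A-C below set D-F in each row, medians as black bars, and filled points for called genes. Genes at 3 counts or fewer in both groups are left out, and IL4I1 in set D-F, at 2.75, is the filled point.

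WARS was set against the 19 other cytosolic aminoacyl-tRNA synthetase genes, which load the other amino acids. At 200 ng/ml 0 of the 19 were called in either set, beside 2.18% and 2.09% of all genes, and their log2 fold changes ran from -0.68 to 0.27 in set A-C (median -0.18) and from -0.51 to 0.42 in set D-F (median -0.06). In each set 2 of the 19 passed the adjusted p with a fall short of 2-fold, VARS and IARS in set A-C and EPRS and LARS in set D-F. At 20 ng/ml 0 of the 19 were called as well, and DESeq2 called 0 at either dose, while between 5 and 8 of the 19 had an unadjusted p under 0.05 in each of the 4 comparisons. At 200 ng/ml the value of WARS, 0.66 and 1.77, lay above the highest of them in both sets. At 20 ng/ml it did so in set D-F (1.29 against 0.25) but not in set A-C (0.08 against 0.15, FARSA). WARS2, the mitochondrial enzyme for the same amino acid, was at 0.0046 in set A-C and -0.29 in set D-F (adjusted p = 1.0 and 0.55). Untreated D had less WARS2 than untreated A (log2 fold change -1.81, SE 0.20, adjusted p = 7.8e-05).

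**Figure D5:**
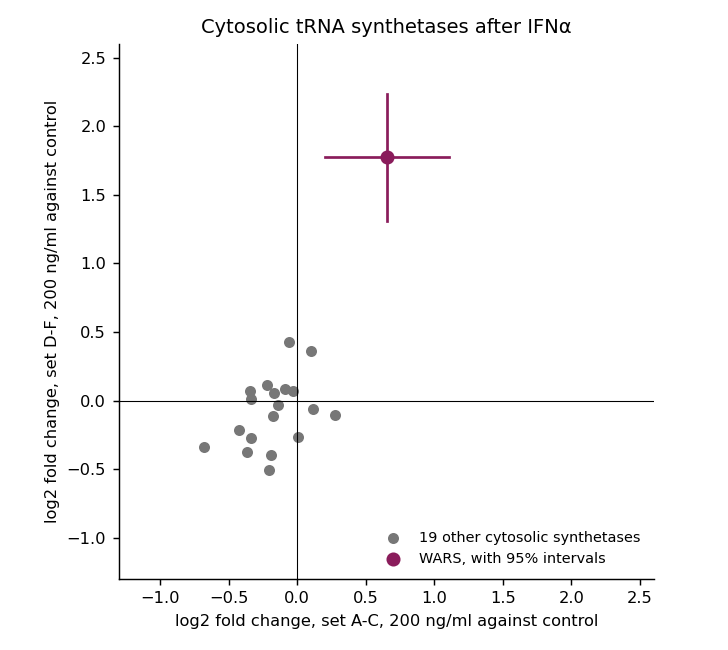
Log2 fold change at 200 ng/ml IFNα against control in set A-C (horizontal) and set D-F (vertical) for WARS, with 95% intervals, and for 19 other cytosolic tRNA synthetases (grey). The grey points lie between -0.68 and 0.42 on both axes and WARS lies at 0.66 and 1.77.

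The sensors of tryptophan and of its products were also read. In the AHR list, which holds the receptor for kynurenines and its targets, 0 of 7 tested genes were called in either set at either dose with edgeR or DESeq2, beside 0.712% to 2.18% of all genes, and 1 to 3 had an unadjusted p under 0.05. At 200 ng/ml AHR had log2 fold changes of 0.17 and 0.03 in sets A-C and D-F, CYP1A1 of 0.04 and -0.51, and CYP1B1 of -0.21 and 0.0090, with adjusted p-values of at least 0.13. TIPARP, a target of AHR named after its values were seen, rose in set D-F by 0.73 at 200 ng/ml (SE 0.11, adjusted p = 0.0050) and by 0.52 at 20 ng/ml (SE 0.11, adjusted p = 0.042), both short of 2-fold. CYP1A1 had 116 to 182 counts in set A-C and 743 to 1468 in set D-F. In the GCN2-ATF4 list, the response to uncharged tRNA, 0 of 10 genes were called at either dose with either tool, beside the same shares of all genes, and 1 to 4 had an unadjusted p under 0.05, of which 1, PHGDH, passed the adjusted p at 200 ng/ml in set A-C (log2 fold change -0.61, adjusted p = 0.028). At 200 ng/ml ATF4 was at 0.29 and 0.14 and ASNS at -0.39 and -0.0008.

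IRF1, a factor that acts on IDO1 and WARS under IFNγ, was at 0.14 on the log2 scale at 200 ng/ml in set A-C (SE 0.09, adjusted p = 0.40). In set D-F it was at 0.66 (SE 0.09, adjusted p = 0.0023), below 2-fold and not called, and the difference between the sets was 0.51 (SE 0.13, adjusted p = 0.076).

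The 8 genes whose log2 CPM followed IDO1 most closely over the 12 samples were NLRC5, C5orf56, JAK2, RTP4, LAMP3, PLAUR, C1orf132 and PSME2, with Pearson's r from 0.960 to 0.981. These are descriptions, since the points share libraries, lines and doses. NLRC5, the activator of HLA class I genes, had a mean log2 CPM of 5.93 in A, 6.72 in C, 4.46 in D and 6.77 in F, a low D beside like levels at 200 ng/ml. The 5 genes most like WARS were STYK1, OSMR, ZFYVE26, GTF2E2 and TRAPPC10, with r from 0.939 to 0.960. STYK1, a kinase-like membrane protein, was at 3.48 in A, 3.77 in C, 3.47 in D and 4.40 in F on the log2 CPM scale, with like controls and a higher F. Between the members themselves, r of IDO1 was 0.85 with KMO, 0.59 with KYNU, 0.44 with WARS and -0.65 with AFMID. With 0 counts of IDO1, D1 and D2 lay far below the other samples on the log scale and weigh on every r of IDO1. KMO was also lowest in D1 and D2 in CPM, while in TPM D2 was not low.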

How the data were processed

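The authors trimmed, aligned and counted the reads, and the processing notes of the submitters name Trimmomatic 0.36, HISAT2 2.1.0, StringTie 1.3.3b and GRCh38.p10. They deposited, for 60099 genes and 201521 transcripts, estimated counts in whole numbers, TPM values, and FPKM values, which were not used further. Gene counts equalled the sum over transcripts for all 60099 genes. All columns were matched to samples by name.

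Estimated counts were compared with edgeR 4.0.16 in R 4.3.3 (TMM, filterByExpr, quasi-likelihood test, 12 samples in 6 groups of set and dose, Benjamini-Hochberg adjustment over 19944 genes or 75876 transcripts). Intervals are 95% intervals from that fit, and its functions were tested on simulated data. A fold against 0 counts used 3 counts per library. Alternatives were DESeq2 1.42.0, its size factors, no filter, a replicate block, the compared groups alone, each sample left out, and limma 3.58.1 on log2(TPM + 0.1). Tables and figures were made with Python 3.11.15, pandas 2.3.3, numpy 2.4.6 and matplotlib 3.10.9. Transcript names came from GENCODE release 29, and promoter windows from RefSeq, in which 4 of the 5 members, all but IDO1, had an entry (WARS as WARS1).

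Members and lists were chosen with earlier results of these data known. Genes named beside the members were those called in their list, fixed key genes (TDO2, IDO2, TPH1, IL4I1, SLC7A5, SLC3A2, WARS2, IRF1, AHR, CYP1A1, CYP1B1, ATF4, ASNS; 1 further gene is not reported here), and the 8 and 5 genes with the highest r to IDO1 and WARS. HAAO, QPRT, AADAT, OPN3, NUP62, TIPARP, PHGDH, NAMPT, NADSYN1, SLC1A5, SLC36A4, 5 tRNA synthetases and the markers were named after their values were seen. So was the unannotated locus that overlaps IL4I1. Replicates were not copies of 1 library: a chi-square test of their counts gave 10.6 to 14.8 per degree of freedom. Over 13034 genes, r was 0.938 to 0.974 within sets and 0.663 to 0.703 between sets.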

Additional observations from a re-analysis of the deposited data

Results flagged for a closer look

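CD68, from the leukocyte marker list, responded more strongly to 200 ng/ml IFNα in set D-F than in set A-C, with a difference of 1.89 on the log2 scale (SE 0.27, adjusted p = 0.013 with edgeR over all genes). CD68 had 107 and 180 counts in A, 212 and 164 in C, 90 and 84 in D, and 439 and 475 in F, while PTPRC and LYZ were at 0 to 2 counts, ITGAX at 6 to 27 in set A-C and 0 in set D-F, and CD14 at 8 to 44 and 0 to 20. Groups of 2 samples are too small for a test of single samples that stand apart.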

How the results depend on the processing

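The log2 fold change of WARS in set D-F at 200 ng/ml stayed called under all 19 alternatives (1.55 to 2.02), and the fold change of IDO1 in set A-C moved within 1.64 to 1.85 on the log2 scale under 18. The lower bound of IDO1 in set D-F, varied after the data were seen, was between 4.25 and 4.33 on the log2 scale with any of the 4 samples left out. Replicate numbers did not pair the samples: the correlation of same-numbered deviations was between -0.030 and 0.041. With the replicate number as a block WARS was at 1.78 in set D-F and 1.13 for the difference between sets at 200 ng/ml, and the block changed no call of a member. It turned the sign of no value named here.

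With DESeq2 the WARS difference between sets (1.09 at 200 ng/ml and 1.20 at 20 ng/ml) and KMO in set D-F (1.54 and 1.46) were called, as were 1 and 5 transcripts of the 4 tested members in sets A-C and D-F at 200 ng/ml. With the unadjusted p in place of the adjusted one, the WARS difference (1.12), KMO in set D-F (1.54) and the KMO difference (1.33) passed at 200 ng/ml, and 2 listed genes did in each set. On log2(TPM + 0.1) KYNU turned to -0.19 in set D-F and -0.55 for the difference at 200 ng/ml, and at 20 ng/ml to -0.11 in set A-C and -0.0041 in set D-F. There AFMID turned to 0.43 for the difference and to -0.11 for D against A, and KMO to 0.11 for D against A. The causes were not tested.

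Leaving out 1 sample at a time, with a lone sample assumed to vary like the other groups, WARS ranged from -0.13 to 0.27 in set A-C and from 1.07 to 1.55 in set D-F at 20 ng/ml, from -0.21 to 0.27 for D against A, and from 0.97 to 1.40 for F against C. KMO ranged from -0.26 to 0.84 in set A-C and from 1.20 to 1.80 in set D-F at 200 ng/ml, from -0.29 to 0.80 and from 1.32 to 1.59 at 20 ng/ml, and from -1.61 to -0.52 for D against A. KMO in set D-F was called without A1 or A2 at 200 ng/ml and without A2 at 20 ng/ml. KYNU ranged from -0.025 to 0.16 for the difference at 200 ng/ml, and AFMID from -0.41 to 0.058 there, from -0.31 to 0.056 in set A-C and from -0.34 to 0.0027 in set D-F at 20 ng/ml. Between 0 and 1 listed genes and 0 and 1 transcripts were called in set D-F, and 0 of either in set A-C. With 2 replicates per group and few counts of IDO1, KMO and IL4I1, small differences of these genes were not detectable.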
